A study of Mus musculus with 6 samples.

Results

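The serpin protease inhibitors were described in epididymal white adipose tissue of mice that carry or lack CD44, a hyaluronan receptor of leukocytes and stromal cells. Members were the genes whose symbol is Serpin, a clade letter from a to i and a number, with the complement inhibitor Serping1 left out, and these were 62 of the 22322 genes listed. RNA was sequenced from 6 libraries of fat after 17 weeks of high fat diet, 3 labelled wild type and 3 labelled CD44-KO. Both groups had the same diet and tissue, so their labels differ by genotype alone. The labels do not say how the knockout was made, nor give age or strain, nor whether each library is 1 animal, and p-values measure the spread between these libraries. Library depth ran from 15543317 to 18765009 total expected counts. The knocked-out gene matched its labels, since Cd44 had 44.1, 144 and 78.8 FPKM (fragments scaled for gene length and library depth) in the wild type libraries (replicates 1, 2 and 3, the order used throughout) against 0.36, 0.59 and 0.43 in the CD44 KO libraries. All 3 CD44 KO libraries stood apart in some way. Replicate 1 correlated more with wild type (mean r 0.932 over genes, which are not replicates) than with the other knockouts (0.908). Replicate 2 held epididymis and liver transcripts, and replicate 3 held liver transcripts at a higher level, with values given beside the serpins they touch.

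Serpins are proteins of one fold, most of which trap a protease by offering a reactive loop as bait and then distorting the enzyme that cuts it. Secreted members control clotting, plasmin and neutrophil proteases, while clade B members stay inside cells and guard against granule and lysosomal proteases. Some members inhibit nothing: Serpinh1 (Hsp47) folds collagen, Serpinf1 (pigment epithelium-derived factor, PEDF) signals through cell receptors, and Serpina6 and Serpina7 carry steroid and thyroid hormones. In fat, PEDF is a secreted product linked to obesity.

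Of the 62 members 36 were measured, meaning 0.5 FPKM or more in any library, and 13 reached that level in all 6. The measured set held 18 members of clade A, 11 of clade B and 7 of the other clades, Serpinc1, Serpind1, Serpine2, Serpinf1, Serpinf2 and Serpinh1 among them. Below the level but above 0 were 11 members, Serpina10, Serpina11, Serpina12, Serpina3a, Serpina6, Serpina9, Serpinb10, Serpinb11, Serpinb6c, Serpinb7 and Serpini1. The other 15 had no count in any library: Serpinb13, Serpinb3a to Serpinb3d, Serpinb6d, Serpinb6e, Serpinb9c to Serpinb9h, Serpine3 and Serpini2. A count of 0 allows up to 3 counts, 0.157 to 0.194 CPM (counts scaled to a common library size) depending on the library, counting error only. Just inside the level were Serpinb2 at a highest value of 0.60 FPKM and Serpina7 at 0.63, and just outside were Serpina3a at 0.49 and Serpinb6c at 0.44.

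No serpin was called different between the genotypes. In edgeR's quasi-likelihood test, 25 members passed the filter on low counts (24 of the measured members and Serpini1), and 0 of them had a Benjamini-Hochberg adjusted p under 0.05, where 2.62% of all 13829 genes tested did. At an unadjusted p under 0.05 there were 2 higher and 7 lower members, 9 of 25, beside 16.3% higher and 14.7% lower, 31% in all, among all genes. Of the 25, 4 had no overlap between the genotypes' libraries, all on the lower side in CD44 KO, beside 18.1% of all genes on that side and 19.7% on the higher side (37.8% in all). The median log2 fold change of CD44 KO over wild type was -0.61 over the 25 members and 0.03 over all genes tested, but the median of members was 0.45 with no filter on low counts and 0.19 by limma on FPKM, both of which take in more low members. DESeq2 called 6 members higher and 5 lower, beside 9.65% and 9.41% of the 15309 genes it tested. The same 11 had an adjusted p under 0.05 in the authors' deposited table, where 6.07% of all 22322 genes were higher and 5.94% lower. That table rests on the same libraries, and the submitters' notes name DESeq2, so the overlap is not independent support. Without CD44 KO replicate 1, edgeR called 3 members higher and 6 lower, beside 7.13% and 9.65% of 14119 genes.

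**Figure D1:**
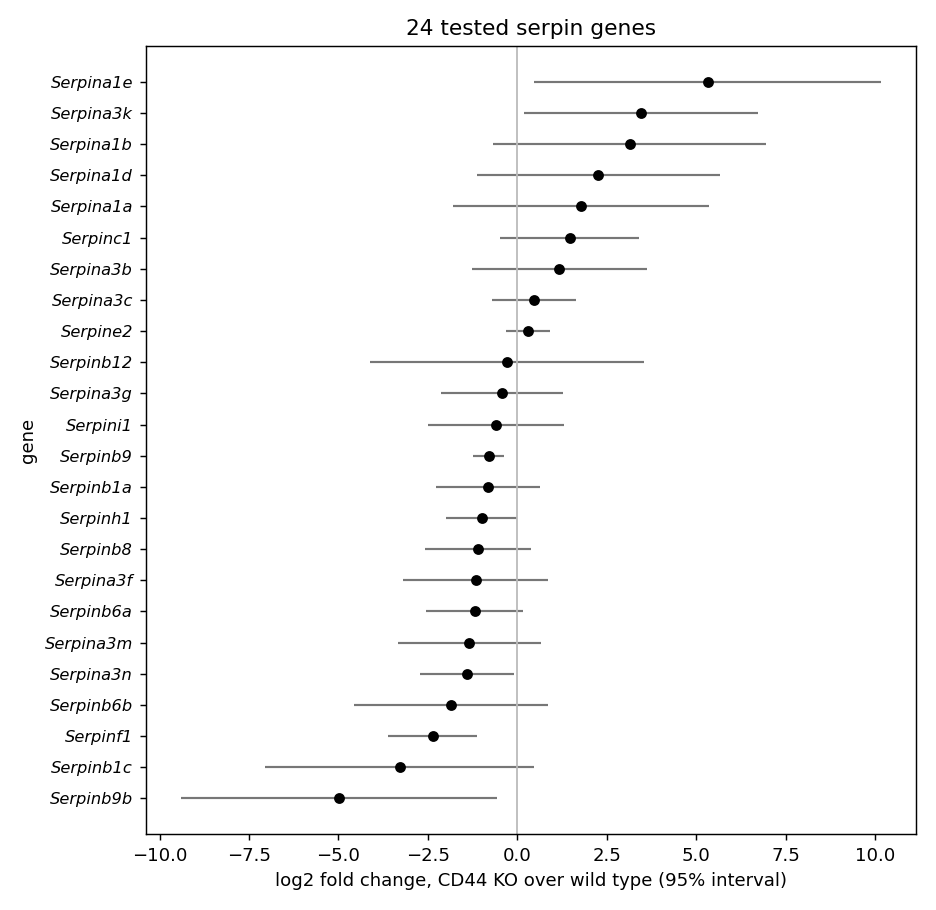
Log2 fold change of CD44 KO over wild type (horizontal axis) for 24 of the 25 serpin genes tested (vertical axis, sorted by value), with points for edgeR estimates and lines for 95% intervals. Clade B genes lie left of 0, Serpina1 genes lie right of it with wide intervals, and Serpinb9b and Serpina1e mark the ends at -5.00 and 5.32.

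Signs were counted by clade. All 8 tested clade B members had negative log2 fold changes (median -1.15), beside 47.8% of all genes tested. Of 11 tested clade A members 7 had positive ones (median 1.17), and edgeR called 0 in either clade. The 7 include Serpina1a, Serpina1b, Serpina1d and Serpina1e, near-identical copies among which reads can have been divided. These copies and Serpina3k, also among the 7, were highest in CD44 KO replicate 3. DESeq2 called 5 clade A members higher and 1 lower, and 2 clade B members lower. Among the 36 measured members the highest library by CPM was CD44 KO replicate 3 for 12, wild type replicate 2 for 8, wild type replicate 1 for 7, CD44 KO replicate 2 for 5, CD44 KO replicate 1 for 2 and wild type replicate 3 for 2. The library with the highest value thus varied between members.

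Serpinf1, which encodes the secreted factor PEDF, had the lowest p of the family. It stood at 424, 257 and 341 FPKM in wild type against 99.7, 29.9 and 64.9 in CD44 KO. Every CD44 KO library lay below every wild type library. In CPM this was 398 ± 105 (SD, n = 3) against 77.5 ± 40.1, a 5.14-fold lower mean with a log2 fold change of -2.36 (SE 0.45, 95% interval -3.60 to -1.12) and an edgeR adjusted p of 0.0522. That p ran from 4.57e-06 to 0.246 over all alternatives, and it was 0.0229 without CD44 KO replicate 1. The gene lies on the minus strand of chromosome 11, 75409769 to 75422701 in GRCm38.

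Serpinh1, the collagen chaperone, was lower in each CD44 KO library too. Its values were 394, 211 and 214 FPKM in wild type against 168, 82.6 and 148 in CD44 KO. The groups did not overlap, though wild type replicates 2 and 3 lay closer to CD44 KO replicate 1 than to wild type replicate 1. The log2 fold change was -0.997 (SE 0.36, edgeR adjusted p 0.125), and -0.63 without wild type replicate 1.

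Bases before the start sites of these 2 genes (RefSeq, GRCm38.p6, both minus strand) are shown because the secreted factor and the collagen chaperone lay lower in every CD44 KO library. Capitals mark CCAAT boxes (letters CCAAT, either strand) in Serpinf1, chr11:75422702-75422873 (172 bases, those outside the GENCODE gene), and the GC box (GGGCGG, either strand) in Serpinh1, chr7:99353240-99353489 (250 bases).
Serpinf1: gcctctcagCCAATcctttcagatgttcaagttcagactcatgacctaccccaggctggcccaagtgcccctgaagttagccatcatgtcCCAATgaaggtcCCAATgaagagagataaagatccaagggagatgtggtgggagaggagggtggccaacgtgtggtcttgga
Serpinh1: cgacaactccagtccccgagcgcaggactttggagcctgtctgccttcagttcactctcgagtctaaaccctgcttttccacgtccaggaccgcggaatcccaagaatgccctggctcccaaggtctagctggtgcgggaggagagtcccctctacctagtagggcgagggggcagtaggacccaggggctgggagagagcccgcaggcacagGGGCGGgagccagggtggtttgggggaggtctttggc
Over the 250 bases before the RefSeq start Serpinf1 holds 3 CCAAT matches and no GC box, and Serpinh1 holds 1 GC box and no CCAAT box. Serpinb9 and Serpinb9b, which also lay lower in every CD44 KO library, hold neither box over that span. The letters CCAAT are found in 33.9% and GGGCGG in 32.7% of the 32851 promoters in the RefSeq table, and in 17 and 7 of the 54 members that have one there.

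The partners of Serpinh1 were read from a list of 19 genes for fibrillar collagens and the enzymes that fold, modify and trim them. By edgeR 4 of 19 were lower and 0 higher, beside 0.882% lower among all genes, and 18 had negative log2 fold changes (median -0.98). All 6 fibroblast markers were negative as well (median -0.83), none was listed at 0, and their sum was 1066, 1147 and 1117 FPKM in wild type against 889.55, 379 and 797 in CD44 KO. Among the markers edgeR called Pi16 lower. Lum and Pdgfra also lay lower in every CD44 KO library, while Dcn, Dpt and Col15a1 overlapped between the genotypes. The part of fibroblasts in the collagen, Serpinh1 and Serpinf1 values was not tested. Called in the list of 19 were Plod2, a lysyl hydroxylase (log2 fold change -1.66, adjusted p 0.0391), and Bmp1, the procollagen C-proteinase (-1.36, 0.0395). Pcolce, the enhancer of Bmp1 (-2.02, 0.0412), and the collagen chain Col5a2 (-1.97, 0.0481) were the others. Bmp1 stood at 25.5, 24.8 and 27.9 FPKM in wild type against 12.6, 6.70 and 9.47 in CD44 KO. P4ha2, a prolyl hydroxylase, was the 1 member with a positive value (0.17, adjusted p 0.586). When CD44 KO replicate 3 or either of wild type replicates 2 and 3 was left out, 0 of the 19 were called. Without wild type replicate 1 or CD44 KO replicate 2, 1 was called. Without CD44 KO replicate 1, 11 were called lower, beside 9.65% lower among all genes in that fit.

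Serpina3n, an acute-phase antiprotease secreted in inflamed tissue, was among the most abundant members. It had 421, 119.5 and 262 FPKM in wild type against 129, 66.0 and 100.03 in CD44 KO. CD44 KO replicate 1 lay above wild type replicate 2, so the groups overlapped. The log2 fold change was -1.40 (SE 0.47, edgeR adjusted p 0.116), and -0.90 without wild type replicate 1. Serpina3c, another gene of the same chromosome 12 cluster, had 113, 34.9 and 63.6 FPKM in wild type against 111, 68.1 and 105 in CD44 KO (log2 fold change 0.46 with SE 0.43 and edgeR adjusted p 0.476). In both genes wild type replicate 2 was the lowest wild type library, as it was for the summed adipocyte markers, at 2306 FPKM against 3572 and 6542 in the others. The adipocyte sum in CD44 KO ran from 4965 to 7074, and its part in these values was not tested. Of the 6 markers 5 had positive log2 fold changes and 1, Lep, a negative one (-1.75, edgeR adjusted p 0.0682). Lep stood at 1397, 564 and 777 FPKM in wild type against 358, 218 and 216 in CD44 KO. In bulk tissue, fewer cells of a type and less RNA per cell cannot be told apart.

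**Figure D2:**
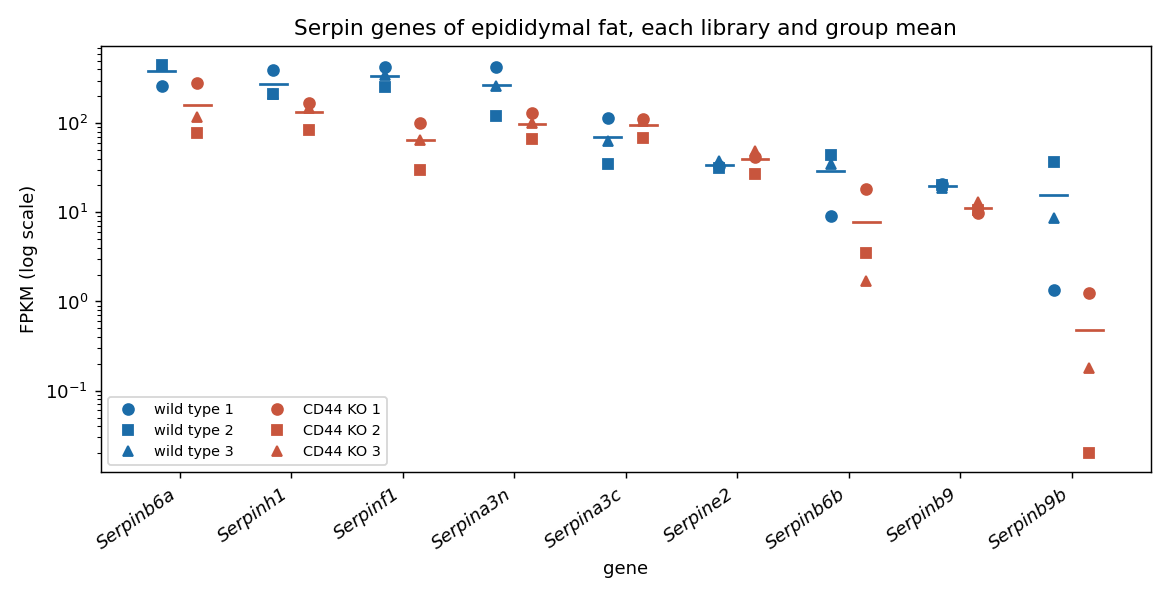
FPKM on a log scale (vertical axis) of 9 abundant or lowest-p serpin genes (horizontal axis), with 1 symbol per replicate, wild type in blue and CD44 KO in red, and short bars for group means. Serpinf1, Serpinh1, Serpinb9 and Serpinb9b show no overlap of the genotypes, while, for example, Serpine2 and Serpina3c overlap.

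Serpine2, a cell-surface inhibitor of thrombin and urokinase, had 32.8, 31.5 and 37.5 FPKM in wild type against 41.9, 27.1 and 48.8 in CD44 KO. Its log2 fold change was 0.29 (SE 0.22, 95% interval -0.32 to 0.90, edgeR adjusted p 0.393). The groups overlapped, and a 2-fold difference in either direction lay outside the interval.

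Of 15 tested genes of the plasminogen and clotting-receptor list, which holds targets and receptors of secreted serpins, edgeR called 1 higher and 1 lower (1.74% and 0.882% of all genes were), with a median log2 fold change of -0.47. Thbd, the thrombin receptor thrombomodulin of vessel walls, rose from 15.3, 13.2 and 10.9 FPKM in wild type to 48.4, 33.4 and 71.8 in CD44 KO (log2 fold change 2.00, adjusted p 0.0353). F2r, a protease-activated thrombin receptor, fell from 7.96, 8.39 and 9.20 FPKM to 2.99, 3.45 and 4.32 (log2 fold change -1.20, adjusted p 0.039). No gene of the list was called higher without any 1 of the wild type libraries or CD44 KO replicate 3, and none was called lower in those fits or without CD44 KO replicate 2. With CD44 KO replicate 1 left out, 3 were called higher and 3 lower, beside 7.13% and 9.65% of all genes in that fit. The activator genes Plat and Plau had log2 fold changes of -0.56 and -0.80 (adjusted p 0.168 and 0.218). The urokinase receptor gene Plaur stood at -1.80 (adjusted p 0.126). Lrp2 had 0, 0.03 and 0.01 FPKM in wild type against 0.33, 10.9 and 0.17 in CD44 KO (log2 fold change 7.29, adjusted p 0.0829), so most of its signal lay in CD44 KO replicate 2.

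Clade B holds the intracellular inhibitors, and its members with values in each library follow. Serpinb9, the inhibitor of granzyme B, had the smallest SE of the clade, at 20.9, 20.2 and 18.5 FPKM in wild type against 9.70, 10.6 and 12.9 in CD44 KO. The groups did not overlap. Its log2 fold change was -0.80 (SE 0.16, 95% interval -1.24 to -0.36, edgeR adjusted p 0.0531), and it lay between -0.92 and -0.70 in all 11 alternatives. The adjusted p was 0.0437 without CD44 KO replicate 1.

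Its neighbour Serpinb9b on chromosome 13 varied far more. It had 1.36, 36.8 and 8.58 FPKM in wild type against 1.25, 0.02 and 0.18 in CD44 KO. Wild type replicate 1 and CD44 KO replicate 1 were nearly equal, and wild type replicate 2 held most of the signal. The log2 fold change was -5.00 (SE 1.59, edgeR adjusted p 0.106), and -3.31 without wild type replicate 2.

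Serpinb6a, an intracellular inhibitor of granule proteases and the member of highest mean FPKM, stood at 257, 444 and 441 FPKM in wild type against 285, 76.5 and 118 in CD44 KO. CD44 KO replicate 1 lay above wild type replicate 1, and the other pair of knockout libraries lay below all wild type libraries. Its log2 fold change was -1.20 (SE 0.49, edgeR adjusted p 0.156). Serpinb6b also had CD44 KO replicate 1 above wild type replicate 1, with 8.97, 44.3 and 34.5 FPKM in wild type against 18.3, 3.46 and 1.70 in CD44 KO (log2 fold change -1.86 with SE 0.98 and edgeR adjusted p 0.234). Serpinb1c, of the neutrophil elastase inhibitor group, had 0.63, 5.13 and 3.51 FPKM against 0.98, 0.06 and 0 (log2 fold change -3.29 with SE 1.35 and edgeR adjusted p 0.159).

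Serpinb1a and Serpinb8 were the other clade B members measured in all 6 libraries, from 1.36 to 9.35 and from 1.32 to 10.5 FPKM, each lowest in CD44 KO replicate 2 and highest in wild type replicate 2. Serpinb12 ran from 0 to 2.55 FPKM with no order by genotype (log2 fold change -0.28, SE 1.38). Serpinb2, an inhibitor of urokinase made by activated macrophages, did not pass the filter of the edgeR test, with 1, 22 and 15 counts in wild type against 2, 2 and 2 in CD44 KO.

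The 7 macrophage markers were all measured, none was listed at 0, and their summed level was 792, 2143 and 1737 FPKM in wild type against 734, 25.6 and 82.7 in CD44 KO. Wild type replicates 2 and 3 were the highest libraries for this sum, and for Serpinb6a, Serpinb6b, Serpinb9b, Serpinb1a, Serpinb1c and Serpinb8. The marker Cd163 was highest in wild type replicate 1, at 11.2, 4.26 and 6.25 FPKM in wild type against 6.38, 2.66 and 6.22 in CD44 KO. Serpinb9 was lowest in CD44 KO replicate 1, where the macrophage sum was 734 FPKM, beside 792 in wild type replicate 1. The 5 mast cell markers summed to 17.4, 150 and 56.1 FPKM in wild type against 31.8, 4.73 and 9.92 in CD44 KO. Kit, of that list, did not follow the sum, at 4.49, 3.26 and 2.48 FPKM against 2.34, 3.64 and 2.58. The 6 T and NK cell markers summed to 3.98 to 9.75 FPKM in wild type and 1.75 to 7.77 in CD44 KO. The part of these cells in the clade B values was not tested. Without CD44 KO replicate 1 the values on the log2 scale were -1.85 for Serpinb6a (edgeR adjusted p 0.0283), -3.39 for Serpinb6b (0.0429) and -6.48 for Serpinb1c (0.0366).

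**Figure D3:**
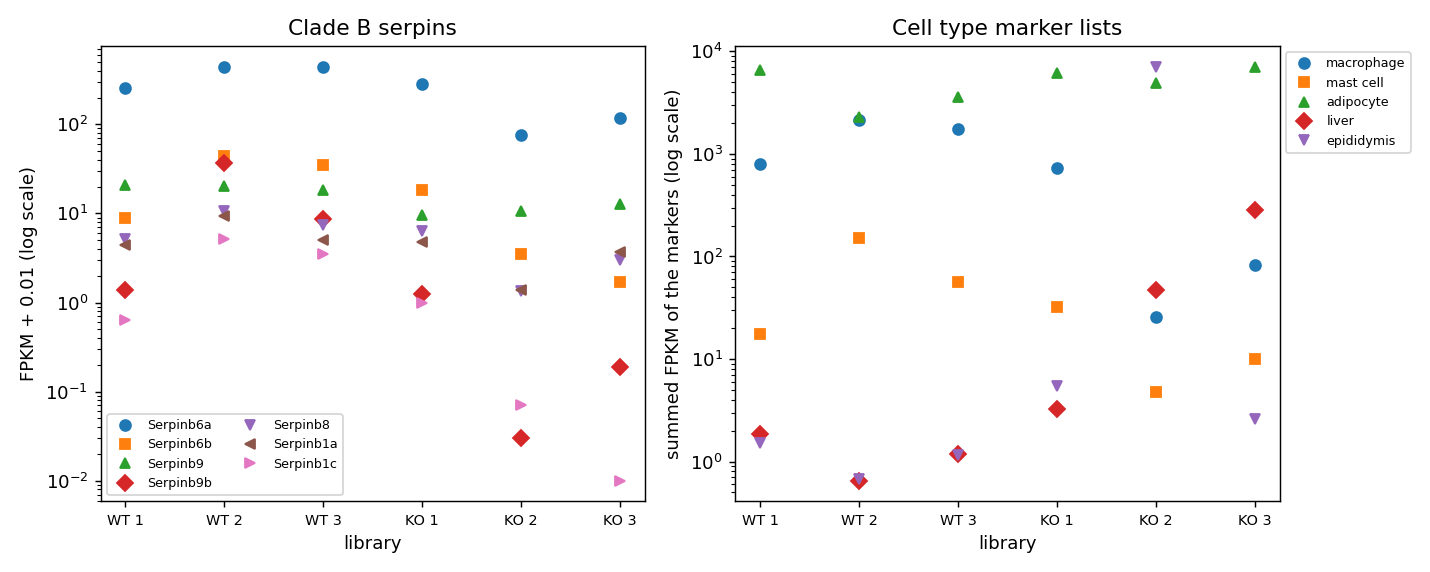
Left, FPKM plus 0.01 on a log scale of 7 clade B serpins in each of the 6 libraries (horizontal axis). Right, summed FPKM of 5 marker lists on a log scale in the same libraries: the macrophage sum is lowest in CD44 KO replicates 2 and 3 (25.6 and 82.7), the epididymis sum reaches 7095 in CD44 KO replicate 2 and the liver sum 281 in CD44 KO replicate 3.

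The proteases that serpins act on were read from a list of 30 genes, of which 20 were tested and 0 called by edgeR. At an unadjusted p under 0.05 there were 2 higher and 3 lower (median of the 20, -1.17), beside 16.3% and 14.7% of all genes, and DESeq2 called 4 higher and 3 lower, beside 9.65% and 9.41% of all genes. The 2 higher ones were the neutrophil granule proteases Prtn3, at 1.46, 0.37 and 0.57 FPKM in wild type against 7.84, 2.85 and 10.9 in CD44 KO, and Elane, at 0.30, 0.11 and 0.16 against 1.95, 0.91 and 1.18 (edgeR adjusted p 0.0633 each). The 3 lower ones were Casp4 and Casp1, inflammatory caspases (log2 fold change -1.22 and -2.30, adjusted p 0.0793 and 0.0798), and the lysosomal cathepsin Ctsb (-1.58, 0.135). Of the 5 neutrophil markers, S100a8 had 65.3, 12.6 and 41.3 FPKM in wild type against 4.32, 1.97 and 14.7 in CD44 KO. S100a9 had 1.05, 0.84 and 1.67 FPKM against 2.57, 1.10 and 21.4. Mpo, Ly6g and Ngp stayed at or below 0.90 FPKM in every library. The part of neutrophils in the protease values was not tested. Gzmb, the target of Serpinb9, stood at 1.00, 0.41 and 0.96 FPKM against 0.42, 0.27 and 0.36 (log2 fold change -1.12, adjusted p 0.204). Cathepsins S and K had log2 fold changes of -2.36 and -3.14 (adjusted p 0.249 and 0.182) and, with the macrophage sum, their lowest values in CD44 KO replicate 2 (12.2 and 3.35 FPKM).

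Serpina1a to Serpina1e, each highest in CD44 KO replicate 3, encode the mouse forms of alpha-1 antitrypsin, the plasma inhibitor of neutrophil elastase. Serpina1e had 0.89, 0.17 and 0.34 FPKM in wild type against 0.38, 5.19 and 59.5 in CD44 KO. CD44 KO replicate 1 lay within the wild type range. The log2 fold change was 5.32 (SE 1.75, 95% interval 0.47 to 10.17, edgeR adjusted p 0.112), and it was 2.46 without CD44 KO replicate 3.

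The other 4 copies had the same order of the 3 knockout libraries. Serpina1c, which was chosen after its values were seen and did not pass the filter of the edgeR test on all libraries, had 0.12, 0.15 and 0 FPKM in wild type against 0.18, 1.98 and 18.6 in CD44 KO. It was called by DESeq2 (log2 fold change 6.16, adjusted p 0.000619) and by edgeR without CD44 KO replicate 1 (6.70, 0.0272). Serpina1a, Serpina1b and Serpina1d reached 21.4, 19.8 and 5.19 FPKM in CD44 KO replicate 3 against highest wild type values of 3.17, 1.63 and 0.93, and their estimates were 1.78, 3.14 and 2.26 on the log2 scale (adjusted p by edgeR 0.368, 0.177 and 0.247). The 5 transcripts are 96.0% to 98.5% identical over their best alignments, and each has counts that are not whole numbers, so reads can have been divided among the copies and the level of a single copy is uncertain.

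The bases before the starts of these 5 genes are shown because the copies were high in the same libraries. Each window holds 66 bases on the minus strand of chromosome 12 (GRCm38.p6, RefSeq starts), and capitals mark GTTAAT, the core of the site bound by HNF1, a liver transcription factor.
Serpina1a: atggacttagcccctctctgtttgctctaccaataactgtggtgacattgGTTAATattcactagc
Serpina1b: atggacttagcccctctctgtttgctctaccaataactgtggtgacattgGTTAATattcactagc
Serpina1c: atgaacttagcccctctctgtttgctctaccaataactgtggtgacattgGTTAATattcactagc
Serpina1d: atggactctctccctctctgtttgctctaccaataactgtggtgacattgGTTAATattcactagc
Serpina1e: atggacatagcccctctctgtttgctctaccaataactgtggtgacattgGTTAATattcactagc
The windows are chr12:103863625-103863690, chr12:103738200-103738265, chr12:103904962-103905027, chr12:103773634-103773699 and chr12:103956960-103957025, in that order. Those of Serpina1a, Serpina1c and Serpina1d lie outside the GENCODE bounds of their genes. Those of Serpina1b and Serpina1e lie inside the bounds, and whether they overlap exons is not given here. Serpina1a and Serpina1b are identical at all 66 positions, and the pairs with the fewest shared positions have 61. The core, searched on both strands, begins 16 to 78 bases before the annotated starts. It is found in 6.43% of all promoters in the table over 250 bases and in 11 of the 54 members there, these 5 included. A match is a description of letters.

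**Figure D4:**
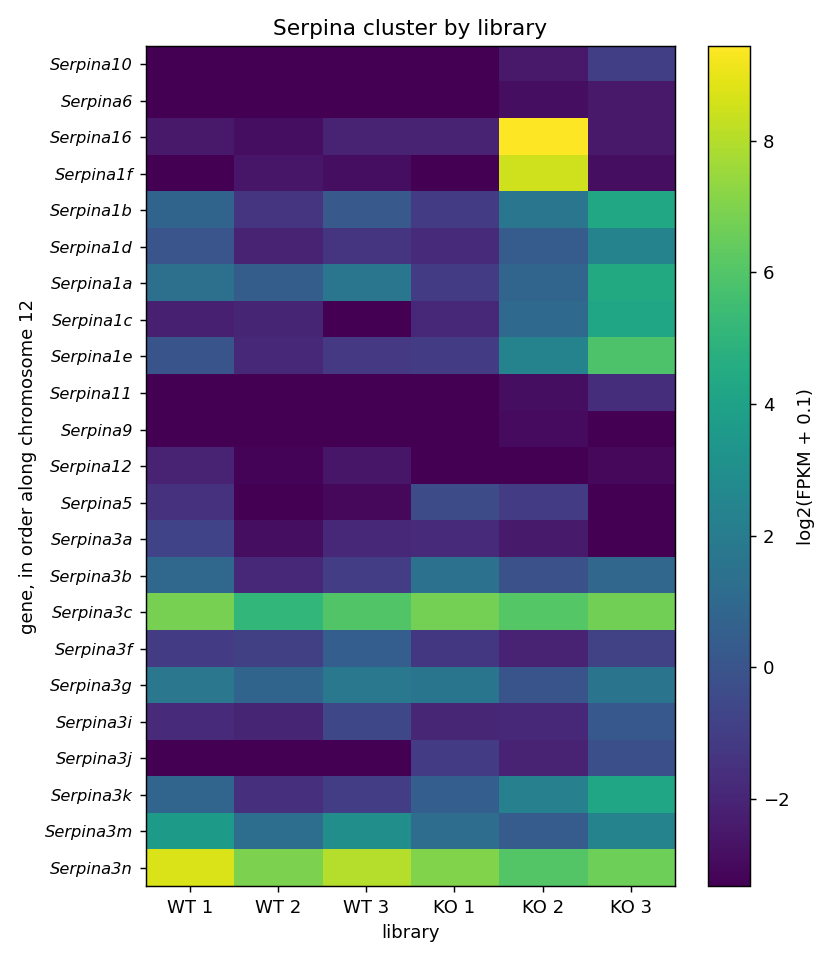
Level of the 23 serpin genes of chromosome 12, in chromosomal order (vertical axis), in each library (horizontal axis), coloured by log2(FPKM + 0.1). Serpina1a to Serpina1e and Serpina3k are brightest in CD44 KO replicate 3, Serpina16 and Serpina1f in CD44 KO replicate 2 only, and Serpina3n and Serpina3c are bright in all 6 libraries.

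Other plasma serpins showed the same high library. Serpina3k, a kallikrein-binding relative of Serpina3n, had 1.69, 0.24 and 0.39 FPKM in wild type against 1.31, 4.56 and 18.5 in CD44 KO (log2 fold change 3.45 with SE 1.18 and edgeR adjusted p 0.118; 2.02 without CD44 KO replicate 3). Serpinc1, antithrombin, had 0.64, 0.33 and 0.60 FPKM against 0.42, 0.82 and 3.82 (log2 fold change 1.46 with SE 0.70 and edgeR adjusted p 0.202; 0.43 without CD44 KO replicate 3). Serpind1, heparin cofactor, did not pass the filter of the edgeR test, with 15, 6 and 5 counts in wild type against 1, 9 and 33 in CD44 KO.

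Serpinf2, the plasmin inhibitor alpha-2-antiplasmin, was chosen after its values were seen. It had 0 counts in all wild type libraries and 4, 10 and 50 in CD44 KO, at least 23.8-fold higher against a floor of 3 counts over the wild type group. That bound was 7.62 without CD44 KO replicate 3. Serpina3j, chosen likewise, had 0 counts in wild type against 13, 5 and 26 in CD44 KO, at least 16.4-fold higher, and 9.80 without that library. Neither gene passed the filter of the edgeR test, and DESeq2 called both (adjusted p 0.0034 for Serpinf2 and 0.00459 for Serpina3j).

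All 7 liver markers were measured, and their sum was 1.87, 0.65 and 1.18 FPKM in wild type against 3.23, 46.7 and 281 in CD44 KO. Alb (albumin) alone stood at 2.66, 30.4 and 190.0 FPKM in the knockout libraries and at 0.13 to 0.80 in wild type. Ttr, Apob and Fgb were listed at 0 in every wild type library and in CD44 KO replicate 1. The CPM ratio of CD44 KO replicate 3 to CD44 KO replicate 2 was 5.89 for Alb and 2.20 to 12.2 over the 7 markers, and 4.02 to 11.9 over Serpina1a to Serpina1e, 3.83 for Serpina3k, 5.39 for Serpinf2 and 3.04 for Serpinc1. Serpina3f, Serpina3g, Serpina3i, Serpina3j, Serpina3m, Serpinb1a, Serpinb10 and Serpind1 also had ratios within the marker range (2.85 to 5.60). Serpini1, Serpina3b and Serpinf1, at 2.16, 2.12 and 2.03, lay just below its lower end, Fga at 2.20. The part of liver RNA in these serpin values was not tested.

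Other members stood out in CD44 KO replicate 2. Serpina16 had 19510 counts there (693 FPKM) and 1 to 4 counts in each of the others. Serpina1f had 10182 counts there (364 FPKM) and 0 to 2 in each of the others. Both lie next to each other between Serpina6 and Serpina1b on chromosome 12, and neither passed the filter of the edgeR test, which asks for counts in 3 libraries. In that library they made up most of the family's summed 1485 FPKM, which was 428 without them, while the sum was 939 and 797 in the other CD44 KO libraries and 1287 to 1768 in wild type. Serpinb5 (maspin), an epithelial member chosen after its values were seen, had 102 counts in the same library and 0 to 4 elsewhere. The carrier of thyroid hormone, Serpina7, chosen likewise, had 26 counts there and 0 in the other 5.

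Of 8 epididymis markers 5 were measured, and their sum was 0.68 to 1.52 FPKM in wild type against 5.44, 7095 and 2.58 in CD44 KO replicates 1 to 3. Crisp1, a sperm-coating protein of the epididymis, had 6360 FPKM there and 0.46 to 1.19 elsewhere, Lcn5 had 105 and 0 elsewhere, and Rnase9 had 304 and at most 0.20 elsewhere. Adam7 had 325 FPKM there, 3.15 and 1.45 in CD44 KO replicates 1 and 3, and 0.03 to 0.05 in wild type. The other 4 did not stand out there: Cst8 had 0.51 FPKM against up to 0.78 elsewhere, Rnase10 0.18 against up to 0.20, Lcn8 a single count, and Lcn9 was 0 in all. Of 5 skin epithelium markers Krt5, Krt14 and Dsp were highest there (4.30, 6.52 and 4.18 FPKM, at most 0.13 elsewhere), while Krt1 was 0 there and Krt10 was higher in CD44 KO replicate 3 (1.93) than there (1.19). The part of epididymal RNA was not tested. Serpinf1, Serpinh1 and Serpinb9 kept log2 fold changes of -2.03, -0.77 and -0.80 without that library (edgeR adjusted p 0.0661, 0.231 and 0.0998).

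Serpina12 and Serpini1 were near their detection limit. Serpina12, the adipokine vaspin, had 8, 1 and 5 counts in wild type against 0, 0 and 1 in CD44 KO, and stayed under the measured level. Serpini1, neuroserpin, had 28, 7 and 19 counts against 14, 6 and 12 (log2 fold change -0.61 with SE 0.68 and edgeR adjusted p 0.561). Serpina12 did not pass the filter of the edgeR test, and counts this low leave the difference of either gene uncertain.

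Receptors and partners of the non-inhibitory serpins were read from a list of 8 genes, with 1 called higher by edgeR, beside 1.74% of all genes, and 6 of 8 positive (median log2 fold change 0.42). The 1 was Agt, angiotensinogen, a non-inhibitory protein of the serpin fold whose symbol does not carry the family name. It rose from 37.4, 9.57 and 19.9 FPKM in wild type to 146, 152 and 199 in CD44 KO (log2 fold change 2.95 with SE 0.50, adjusted p 0.0438). Every CD44 KO library lay above every wild type library. No gene of the list was called higher without wild type replicate 2 or 3 or CD44 KO replicate 2 or 3. Pnpla2, the triglyceride lipase described as a receptor for PEDF, had 831, 372 and 572 FPKM against 1211, 1263 and 1568 (log2 fold change 1.21, adjusted p 0.0904). Genes of glucocorticoid handling, Nr3c1 and Hsd11b1, had log2 fold changes of 0.50 and 1.40 (adjusted p 0.0929 and 0.099).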

How the data were processed

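Poly(A) RNA of epididymal fat was selected on oligo(dT) and sequenced on a NovaSeq, per the labels' protocols. RSEM, DESeq2, HISAT2 and StringTie 1.3.1 appear in the submitters' processing notes with no role or order. Their build, annotation and strand setting: not given in the sources used here. The authors deposited expected counts per gene and library (not scaled, 7.57% to 8.30% not whole) and FPKM scaled by the authors for length and depth. Their comparison table, per the file headers, repeats these as rounded counts and adds group mean FPKM, a log2 fold change and p-values, deposited by the authors for CD44 KO against wild type. Positions are those of GENCODE M21 (GRCm38), matched by identifier.

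Expected counts were rounded and tested over the whole table with edgeR 4.0.16 in R 4.3.3: filterByExpr, TMM, glmQLFit with robust estimation, glmQLFTest and Benjamini-Hochberg adjustment ("edgeR adjusted p", called under 0.05; "adjusted p" beside a partner gene is the same). SE is the absolute log2 fold change over the square root of F, and 95% intervals use 4 degrees of freedom, so interval and p can differ. CPM are TMM-scaled. The fit was tested on simulated data. Alternatives were RLE scaling, no filter, DESeq2 1.42.0, limma 3.58.1 on log2(FPKM + 0.1), a replicate block and leaving out each library. Transcripts were aligned with blastn 2.17.0.

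The members, partner lists and markers were chosen with earlier results of these data known. Named members were all called ones, those with an unadjusted p under 0.05, the 10 of highest mean FPKM and 11 fixed by name (among them Serpine2, Serpinf1, Serpinh1, Serpina12, Serpina3n, Serpinb2, Serpinb9, Serpinc1, Serpind1, Serpini1). From each partner list, called genes and up to 3 of lowest p were named, and other partner genes were chosen after their values were seen. A withheld item is not reported here.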

Additional observations from a re-analysis of the deposited data

How the results depend on the processing

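Of the 25 tested serpins, the 15 taken by the naming rule were followed through the alternatives, 11 each and 10 for Serpini1, and these 15 kept the direction of their log2 fold change. The number of calls did not keep. With DESeq2, 1478 genes of the whole table were higher and 1441 lower (240 and 122 by edgeR), 9.65% and 9.41% of the 15309 it tested. It called 6 and 5 of 38 serpins, 2 and 4 of 15 plasminogen system genes and 4 and 3 of 26 target proteases. It also called 13 of 19 collagen folding genes lower and 4 of 8 partners of non-inhibitory serpins higher. With no filter on low counts 145 of 18497 genes were higher and 0 partners of non-inhibitory serpins. With limma 1 of 36 serpins was lower, beside 157 of 14589 genes. The serpin median log2 fold change was 0.45 with no filter and 0.19 with limma. Of the 62 members, 23 reached the measured level in at least 3 libraries. Leaving out each library in turn gave 0 to 1007 genes higher and 0 to 1363 lower, 0 to 3 serpins higher and 0 to 6 lower, 0 to 3 plasminogen system genes higher and 0 to 3 lower, 0 to 2 target proteases higher and 0 to 6 lower, 0 to 11 collagen folding genes lower, 0 to 1 partners of non-inhibitory serpins higher, and a serpin median from -0.93 to -0.14. The highest counts of genes, serpins and proteases came without CD44 KO replicate 1, where 7.13% of 14119 genes were higher and 9.65% lower. The cause was not tested. With the replicate number as a block, 0 genes were called in either direction, so 0 in the plasminogen, collagen and non-inhibitory partner lists. Libraries of the same number had correlations of -0.32, -0.22 and -0.02 between their deviations from the group means. Those of different number ran from -0.18 to 0.29. With 3 libraries per group these values cannot show whether the numbers mark pairs, and the labels do not say. Members that did not pass the filter on low counts have no value in the edgeR fit.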
